A study of Mus musculus with 6 samples.

Results

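DNA methylation is written, copied, removed and read by a small set of enzymes and binding proteins, and 9 of their genes were followed here in the cortex of fetal male mice after maternal exposure to bisphenol A (BPA, a plastic monomer with estrogen-like activity). They were the rows named Dnmt1, Uhrf1, Dnmt3a, Dnmt3b, Tet1, Tet2, Tet3, Mbd2 and Mbd3, taken by symbol from 45583 rows of gene counts. All 9 had enough counts to be tested, among 13741 genes that did. The 6 fetuses were of the strain Cyp19-EGFP, a reporter strain with an aromatase transgene that carries the gene for a green fluorescent protein. All were labelled as wild type and Sry positive, the labels do not say whether they carried the transgene, and all were taken at GD15.5 (gestational day). The dams of 3 fetuses received 50 µg/kg BPA between GD10.5 and GD14.5, and the dams of the other 3 received peanut oil as vehicle over the same days. Each fetus gave 1 library of total RNA from cortex. The labels name the fetuses and not the dams, so fetuses of a group may share a litter, and the p-values measure the spread between fetuses only.

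Methylation of cytosine in CpG dinucleotides is laid down by the DNA methyltransferases and marks silent promoters, repeats and imprinted genes. Dnmt3a and Dnmt3b methylate new sites, Dnmt1 copies the pattern onto the new strand after replication, and Uhrf1 brings Dnmt1 to sites that are methylated on a single strand. The Tet dioxygenases oxidize methylcytosine and so start its removal. Mbd2 binds methylated CpG, Mbd3 is its close relative with little preference for methylated DNA, and each serves as a subunit of the NuRD complex, a chromatin remodeler and histone deacetylase. In the fetal cortex Uhrf1 is known as a gene of dividing progenitors, and Dnmt3a and the Tet genes as genes that stay active in neurons.

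The promoters of the maintenance pair and of the de novo pair are shown because the members of each pair divide the same task, and because CpG is the dinucleotide at which these proteins act. Methylation of the promoters was not measured here. RefSeq promoter windows on GRCm38.p6 (250 bases before to 50 bases after a start site) were at hand for 8 of the 9 genes, and the entry for Mbd2 was missing. For a gene with several windows, the one with most CpG is given, 5′ to 3′ along the gene, with each CpG in capitals. The windows are chr9:20952574-20952873 on the minus strand for Dnmt1, chr17:56304063-56304362 on the plus strand for Uhrf1, chr12:3806910-3807209 on the plus strand for Dnmt3a and chr2:153649199-153649498 on the plus strand for Dnmt3b.
Dnmt1: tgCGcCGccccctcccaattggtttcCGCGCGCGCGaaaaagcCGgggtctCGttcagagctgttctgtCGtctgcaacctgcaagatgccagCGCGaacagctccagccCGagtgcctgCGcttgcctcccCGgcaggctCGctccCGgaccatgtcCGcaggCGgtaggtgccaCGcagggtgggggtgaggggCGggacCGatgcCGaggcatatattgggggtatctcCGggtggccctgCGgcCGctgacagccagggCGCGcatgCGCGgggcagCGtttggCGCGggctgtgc
Uhrf1: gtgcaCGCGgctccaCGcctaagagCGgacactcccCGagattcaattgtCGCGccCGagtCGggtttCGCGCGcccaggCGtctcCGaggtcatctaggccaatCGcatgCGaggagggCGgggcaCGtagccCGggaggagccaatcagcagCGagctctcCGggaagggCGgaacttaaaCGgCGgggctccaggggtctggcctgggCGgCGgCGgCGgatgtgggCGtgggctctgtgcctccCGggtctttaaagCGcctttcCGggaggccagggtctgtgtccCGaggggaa
Dnmt3a: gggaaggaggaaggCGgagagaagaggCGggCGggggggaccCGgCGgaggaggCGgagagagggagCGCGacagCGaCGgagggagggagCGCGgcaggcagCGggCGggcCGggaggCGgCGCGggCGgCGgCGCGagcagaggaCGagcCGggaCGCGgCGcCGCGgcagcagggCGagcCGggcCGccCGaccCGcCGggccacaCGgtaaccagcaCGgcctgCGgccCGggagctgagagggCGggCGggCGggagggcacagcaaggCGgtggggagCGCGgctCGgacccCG
Dnmt3b: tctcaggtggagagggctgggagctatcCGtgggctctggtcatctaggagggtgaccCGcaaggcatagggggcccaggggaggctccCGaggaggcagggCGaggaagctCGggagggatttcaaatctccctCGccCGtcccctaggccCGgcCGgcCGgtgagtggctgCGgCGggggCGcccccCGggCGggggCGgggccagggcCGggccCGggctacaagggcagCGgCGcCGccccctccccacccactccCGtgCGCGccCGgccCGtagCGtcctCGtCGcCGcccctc
These windows held 33 CpG in Dnmt1, 33 in Uhrf1, 47 in Dnmt3a and 30 in Dnmt3b, against a median of 7 and quartiles of 3 and 20 over 32851 promoter windows of the same length. Picking the window with most CpG raises these counts against windows that were not picked. The windows not shown held 12 and 2 CpG for Dnmt1, 12 for Uhrf1, and 46 and 18 for Dnmt3a. The other genes with a window were also above that median, with 17 CpG for Tet1, 57 for Tet2, 22 for Tet3 and 22 for Mbd3. The binding word of the E2F factors, which drive genes of S phase, was searched on both strands as TTTCCCGC, TTTCGCGC, TTTGGCGC or TTTGCCGC. It occurred 2 times in the Dnmt1 window shown and 1 time in the Uhrf1 window shown, and 2.26% of all windows held it. The windows shown for Dnmt3a and Dnmt3b held none of these words, and neither did the windows of Dnmt1 and Uhrf1 that are not shown. CCAAT, searched on both strands, occurred 3 times in the Dnmt1 window shown and 2 times in the Uhrf1 window shown, and 37.4% of all windows held it. In the windows not shown it occurred 0 and 5 times for Dnmt1 and 3 times for Uhrf1. A match describes the letters of a window and does not show that a factor binds there.

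In the reference annotation (GENCODE M21, GRCm38) the 9 genes lie on 8 chromosomes. Dnmt1 (ENSMUSG00000004099.16) spans 20907209 to 20959888 of chromosome 9 on the minus strand. Uhrf1 (ENSMUSG00000001228.14) spans 56303321 to 56323486 of chromosome 17 on the plus strand. Dnmt3a (ENSMUSG00000020661.15) spans 3806007 to 3914443 of chromosome 12, and Dnmt3b (ENSMUSG00000027478.15) spans 153649450 to 153687730 of chromosome 2, both on the plus strand. Tet1 (ENSMUSG00000047146.17) spans 62804570 to 62908996 of chromosome 10, Tet2 (ENSMUSG00000040943.12) spans 133463679 to 133545139 of chromosome 3, and Tet3 (ENSMUSG00000034832.15) spans 83362373 to 83459084 of chromosome 6, all on the minus strand. Mbd2 (ENSMUSG00000024513.16) spans 70568189 to 70626131 of chromosome 18 on the plus strand, and Mbd3 (ENSMUSG00000035478.14) spans 80392539 to 80399550 of chromosome 10 on the minus strand. Exons joined over all transcripts came to 16.9 kb for Tet2, 16.7 kb for Tet3 and 16.6 kb for Dnmt3a, with Tet1 next in length. They came to 7.38 kb for Dnmt1, 5.11 kb for Dnmt3b, 4.26 kb for Uhrf1, 3.21 kb for Mbd2 and 1.99 kb for Mbd3.

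The libraries held from 3444601 (BPA replicate 3) to 7180835 counts (vehicle replicate 2), and a count of 0 allowed up to 0.871 and 0.418 CPM (counts scaled to a common library total) in these libraries, counting error only. All 12 cortical neuron markers had counts in every library, with the highest mean over all libraries for Dcx (2317 CPM in vehicle and 2322 CPM in BPA), and their sum ran from 10449 to 10908 CPM in vehicle and from 10253 to 10845 CPM in BPA. All 12 markers of the ventral telencephalon, which borders the cortex, also had counts in every library. Their sum was lower in BPA (1040 to 1145 CPM) than in vehicle (1199 to 1364 CPM), and none of their defining genes was at 0. For 8 of the 12 genes the BPA libraries lay below all vehicle libraries, against 3.56% of all genes tested. Markers of the choroid plexus, led by its transport protein gene Ttr, summed to 228 CPM in vehicle replicate 2 and 362 CPM in BPA replicate 2, and to 13.8 to 20.6 CPM in the other 4 libraries. In such bulk samples fewer cells of a type and less RNA per cell cannot be told apart.

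Which of the 9 genes were abundant was read from levels per length, in CPM per kilobase of joined exons over the 6 libraries. Mbd3 stood highest at 82.8 CPM per kb ± 3.61 (SD, n = 6), and Dnmt1 was next at 46.8 ± 1.99. Tet3 followed at 22.0 CPM per kb ± 2.85. Each of these 3 genes was above the next in all 6 libraries, without overlap. Uhrf1 (12.4 to 16.4 CPM per kb) and Dnmt3a (12.6 to 16.6) could not be ordered, since Uhrf1 was the higher in 3 of 6 libraries. Mbd2 stood at 9.55 CPM per kb ± 0.695, below both in every library. Tet2 (5.69 CPM per kb ± 0.710) and Tet1 (5.58 ± 0.700) also could not be ordered, with Tet2 the higher in 3 of 6 libraries. Dnmt3b was the lowest at 0.930 CPM per kb ± 0.169. Among 13126 tested genes with a length, 97.4% had a lower level than Mbd3, 93.4% a lower level than Dnmt1 and 81.4% a lower level than Tet3, but only 8.99% a lower level than Dnmt3b.

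The order depended in part on the length used. With the longest annotated transcript in place of the joined exons, Dnmt3a (24.5 CPM per kb ± 2.47, SD, n = 6) stood above Uhrf1 (17.0 ± 1.78), and Tet2 above Tet1, in all 6 libraries. The ranges of Uhrf1 and Mbd2 (15.7 CPM per kb ± 1.14) then overlapped. So did those of Tet3 (28.1 to 39.7 CPM per kb) and Dnmt3a (21.6 to 28.6), although Tet3 was the higher in all 6 libraries. Mbd3, Dnmt1 and Tet3 kept the top places and Dnmt3b the last under both lengths.

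**Figure D1:**
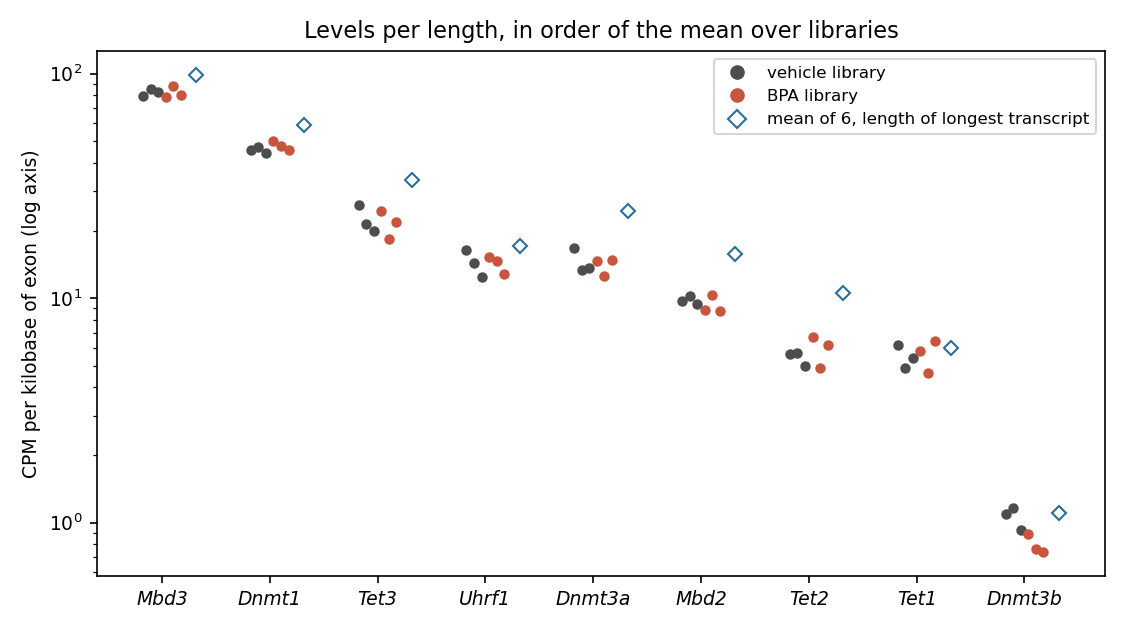
Level of the 9 genes in CPM per kilobase of joined exons (log axis), with a point for each vehicle library (grey) and BPA library (red). Open diamonds give the mean over 6 libraries with the length of the longest transcript instead. Mbd3 and Dnmt1 lie at the top and Dnmt3b at the bottom, and the vehicle and BPA points of most genes intermingle.

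The comparison of BPA with vehicle asked whether the exposure changed the expression of these genes. None of the 9 passed: 0 had an adjusted p under 0.1 in edgeR's quasi-likelihood test, as did 0% of the 13741 genes. The count with unadjusted p under 0.05 was 0 of 9 in that test, against 2.20% of all genes (1.18% with BPA lower and 1.02% with BPA higher), and DESeq2, limma-voom and edgeR's likelihood ratio test likewise gave 0 of 9 at either threshold. Log2 fold changes of BPA over vehicle ran from -0.40 for Dnmt3b to 0.12 for Tet2, with 3 genes above 0 and 6 below, and their median was -0.01. Each adjusted p was 1 in the quasi-likelihood test. A p above the threshold does not show that levels were equal, so the 95% interval of each difference is given with the values.

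Of the maintenance pair, Dnmt1 rested on 1158 to 2470 counts per library. Its level was 338, 348 and 328 CPM in the vehicle libraries and 370, 351 and 338 CPM in the BPA libraries, in the order of replicates 1 to 3. The groups overlapped, and the highest library was only 1.13 times the lowest. The log2 fold change of Dnmt1 was 0.06 (SE 0.0888, 95% interval -0.12 to 0.25, unadjusted p = 0.476, edgeR). On a linear scale that interval runs from 0.918 to 1.19 times the vehicle level. Uhrf1, the partner that recognizes newly copied DNA, stood at 70.0, 60.8 and 52.9 CPM in vehicle and at 65.0, 62.2 and 54.8 CPM in BPA. Replicate 3 of each group was the lowest, and the groups overlapped almost completely. For Uhrf1 the log2 fold change was -0.01 (SE 0.125, 95% interval -0.27 to 0.26, unadjusted p = 0.941, edgeR). Markers of S phase, when Dnmt1 and Uhrf1 act, summed to 909, 944 and 854 CPM in vehicle and 922, 987 and 738 CPM in BPA, so that replicate 3 was the lowest of its group there as well.

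The counts of Uhrf1 were the least certain of the 9 by sequence. Of its 50-base transcript words, 15.4% also occur in transcripts of other genes, above all Gm5648, which had 48 to 138 counts per library, or 25.5% to 34.7% of the count of Uhrf1. With the counts of both summed, the log2 fold change was -0.06. Dnmt3b shared 9.81% of its words, mostly with Dnmt3c, whose symbol was not analysed here, and each of the other 7 genes shared under 1%. An antisense gene, Dnmt3aos, covers 0.799% of the exons of Dnmt3a and had 0 counts in every library.

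Of the de novo writers, Dnmt3a was measured with 840 to 1883 counts per library. It stood at 277, 221 and 226 CPM in vehicle and at 244, 209 and 245 CPM in BPA. Vehicle replicate 1 was the highest and BPA replicate 2 the lowest, and the groups overlapped. BPA and vehicle differed in Dnmt3a by a log2 fold change of -0.05 (SE 0.109, 95% interval -0.28 to 0.18, unadjusted p = 0.636, edgeR). Dnmt3b, the main de novo enzyme of the early embryo, had only 24 to 42 counts per vehicle library and 13 to 29 per BPA library. Its level was 5.59, 5.91 and 4.73 CPM in vehicle and 4.55, 3.90 and 3.79 CPM in BPA. All 3 BPA libraries lay below all 3 vehicle libraries, though vehicle replicate 3 and BPA replicate 1 nearly met. Dnmt3b was the 1 member of 9 whose groups did not overlap, and 6.75% of all genes tested had groups that did not overlap (3.56% with BPA lower and 3.19% with BPA higher). The log2 fold change of Dnmt3b was -0.40 (SE 0.249), the largest in size of the 9, and its 95% interval was -0.93 to 0.13 (edgeR, unadjusted p = 0.125). That interval runs from 0.524 to 1.09 times the vehicle level, the widest of the 9. The sum of the ventral telencephalon markers was also lower in every BPA library, and its part in the values of Dnmt3b was not tested.

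**Figure D2:**
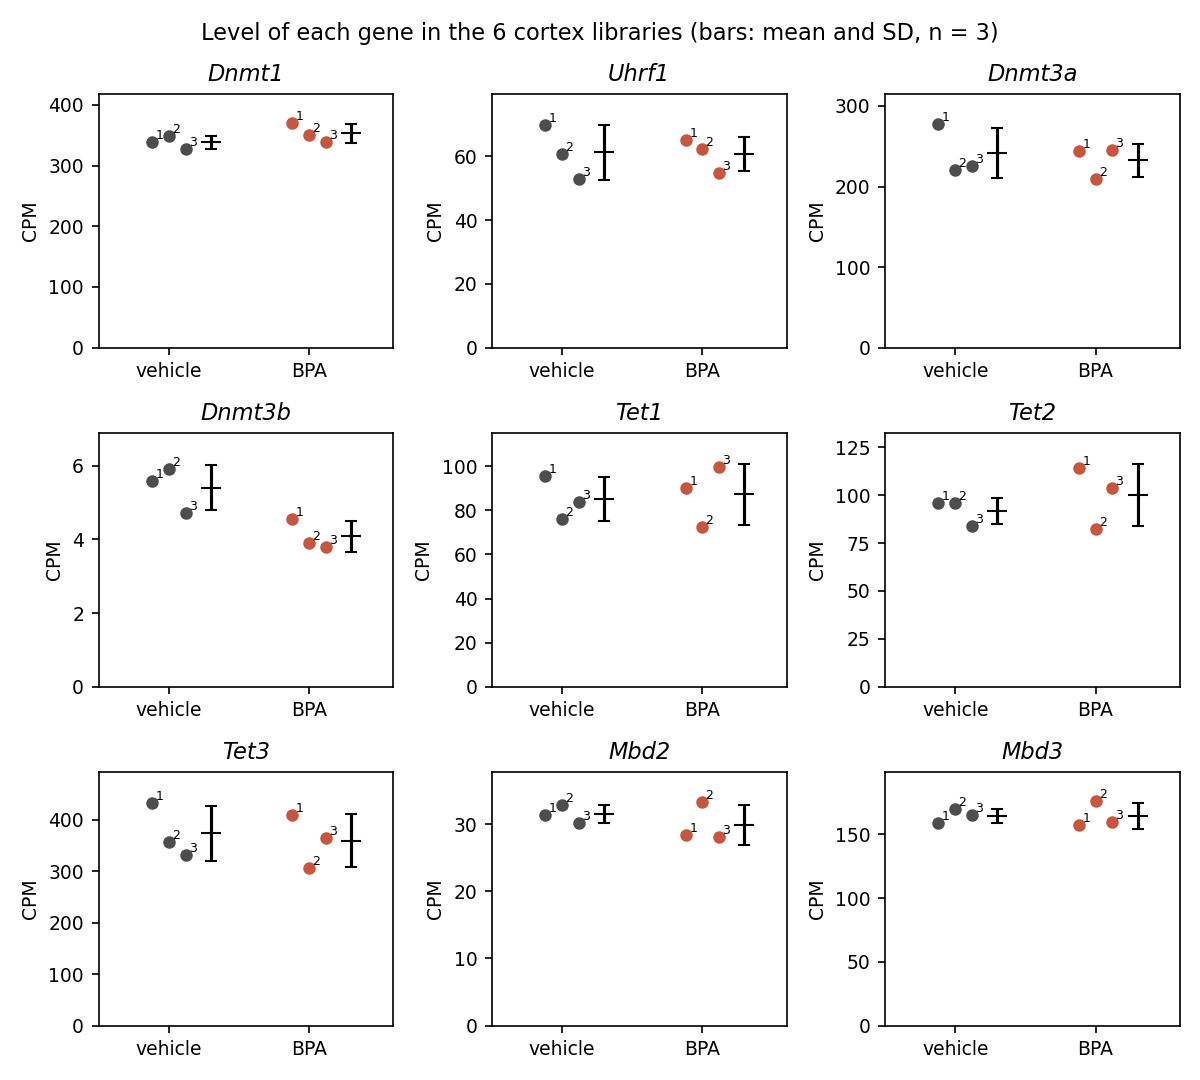
Level of each gene in CPM (each axis from 0) in the 3 vehicle libraries (grey) and the 3 BPA libraries (red), numbered by replicate, with the group mean and SD beside them. The groups overlap for 8 of the 9 genes, and for Dnmt3b the BPA points lie between 3.79 and 4.55 CPM, below the vehicle points at 4.73 to 5.91 CPM.

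Of the erasers, Tet3 had the highest counts, from 1248 to 2942 per library. It stood at 433, 358 and 331 CPM in vehicle and at 410, 306 and 364 CPM in BPA. The spread within each group was wide, and BPA replicate 2 was the lowest library of all. The log2 fold change of Tet3 was -0.05 (SE 0.121, 95% interval -0.31 to 0.20, unadjusted p = 0.663, edgeR). Tet1, the Tet enzyme best known from pluripotent cells, was at 95.7, 76.0 and 83.8 CPM in vehicle and at 90.1, 72.3 and 99.5 CPM in BPA. Its lowest and its highest library were both BPA libraries. For Tet1 the log2 fold change was 0.03 (SE 0.130, 95% interval -0.25 to 0.30, unadjusted p = 0.832, edgeR). Tet2, which lacks the CXXC domain found in other Tet proteins, was at 95.7, 95.9 and 84.0 CPM in vehicle and at 114, 82.4 and 104 CPM in BPA. BPA replicates 1 and 3 lay above all vehicle libraries and BPA replicate 2 lay below them. Tet2 had a log2 fold change of 0.12 (SE 0.124, 95% interval -0.14 to 0.38, unadjusted p = 0.350, edgeR). When vehicle replicate 2 and BPA replicate 2, the libraries rich in choroid plexus transcripts, were both left out, the log2 fold change of Tet2 was 0.28 (edgeR, unadjusted p = 0.0335, adjusted p = 0.668). In that setting, chosen after seeing the data, 6.99% of 13643 genes had an unadjusted p under 0.05.

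The readers varied little between libraries. Mbd3, with 550 to 1205 counts per library, was at 159, 170 and 165 CPM in vehicle and at 157, 176 and 160 CPM in BPA. Its lowest and highest libraries, both BPA libraries, were close to each other. Mbd3 had a log2 fold change of 0.00 (SE 0.0946, 95% interval -0.20 to 0.20, unadjusted p = 0.999, edgeR). Mbd2 had fewer counts, from 96 to 234 per library, and was at 31.3, 32.9 and 30.2 CPM in vehicle and at 28.4, 33.3 and 28.0 CPM in BPA. BPA replicates 1 and 3 were below all vehicle libraries, and BPA replicate 2 was above them. Mbd2 had a log2 fold change of -0.07 (SE 0.128, 95% interval -0.34 to 0.20, unadjusted p = 0.595, edgeR).

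**Figure D3:**
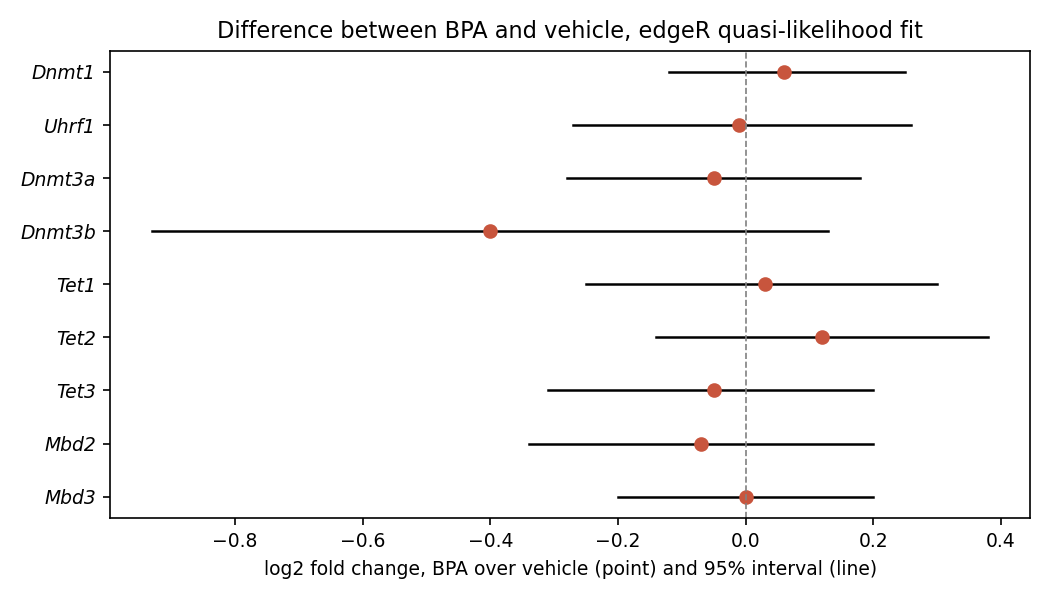
Log2 fold change of BPA over vehicle (points) with the 95% interval (lines) for the 9 genes, from the edgeR quasi-likelihood fit over all genes. Every interval includes 0, and the interval of Dnmt3b, from -0.93 to 0.13, is the widest.

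The balance within each family was compared next, as shares of per-length counts within a library, which do not depend on how libraries are scaled. Dnmt3a made up 93.8%, 92.0% and 93.6% of the summed Dnmt3a and Dnmt3b level in vehicle and 94.3%, 94.3% and 95.2% in BPA. The 3 BPA libraries lay above the 3 vehicle libraries, by a mean of 1.44 percentage points, with p = 0.1 by a two-sided exact permutation test, the smallest p that 3 libraries against 3 allow (0.333 adjusted over the 5 shares examined). The difference was 0.864 percentage points without vehicle replicate 2. This share rests on the same few Dnmt3b counts as the difference in Dnmt3b itself. Tet3 made up 68.6%, 66.9% and 65.6% of the summed Tet level in vehicle and 66.1%, 65.7% and 63.4% in BPA, where the groups overlapped (exact permutation p = 0.300, adjusted 0.375). That overlap depended on the length used. With the longest transcript as length, the Tet3 share was lower in every BPA library than in every vehicle library, by a mean difference of -2.06 percentage points. Tet2 held 15% to 17.7% of the Tet level in vehicle and 17.5% to 18.2% in BPA (exact permutation p = 0.200, adjusted 0.333), and Tet1 held 15.4% to 18.7% over all 6 libraries (exact permutation p = 0.600, adjusted 0.600). Mbd2 held 10.9%, 10.7% and 10.1% of the summed Mbd2 and Mbd3 level in vehicle and 9.74% to 10.1% in BPA replicates 3 and 1, with BPA replicate 2 between the lowest 2 vehicle libraries (exact permutation p = 0.200, adjusted 0.333). In every library Tet3 exceeded Tet1 and Tet2 together, and Mbd3 exceeded Mbd2.

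**Figure D4:**
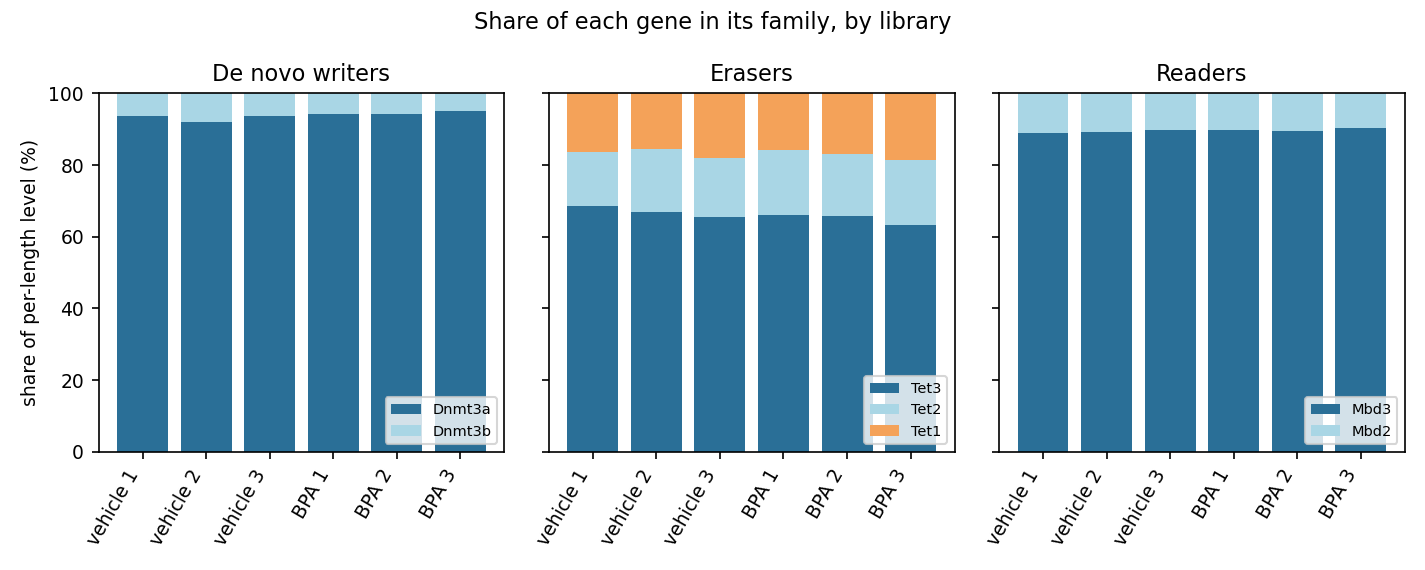
Share (%) of each gene in the summed per-length level of its family, for the de novo writers, the erasers and the readers, in each of the 6 libraries. Dnmt3a holds 92.0% to 95.2%, Tet3 63.4% to 68.6% and Mbd2 9.74% to 10.9%, and the bars look alike in vehicle and BPA.

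For all members but Dnmt3b, the range within at least 1 group exceeded the difference between the group means, and several members deviated together. Relative to its mean over the 6 libraries, on the log2 CPM scale, Tet3 was at 0.25, -0.03 and -0.14 in vehicle and at 0.17, -0.25 and 0.00 in BPA. Dnmt3a was at 0.23, -0.10 and -0.06 in vehicle and at 0.05, -0.17 and 0.05 in BPA, and Tet1 at 0.16, -0.17 and -0.03 and then 0.07, -0.24 and 0.21. BPA replicate 2 was the lowest library for Tet1, Tet2, Tet3 and Dnmt3a, and the highest for Mbd2 and Mbd3. Tet1, Tet2, Tet3 and Dnmt3a, with the longest exons of the 9, fall in the top quartile of genes by length (at least 6.99 kb), as does Dnmt1, while Mbd3 falls in the bottom quartile (up to 2.75 kb). The median deviation of the 3282 genes in the top quartile was 0.06, -0.03 and -0.06 in vehicle and 0.05, -0.07 and 0.05 in BPA, so BPA replicate 2 was the lowest library there too. The median of the bottom quartile was -0.04, 0.03 and 0.08 in vehicle and -0.04, 0.08 and -0.07 in BPA. Vehicle replicate 3 had nearly the same medians (-0.06 and 0.08) as BPA replicate 2, with Mbd2 at -0.02 and Mbd3 at 0.01. Dnmt1, also long, did not follow the other long members, at -0.03, 0.01 and -0.07 in vehicle and 0.10, 0.03 and -0.03 in BPA. BPA replicate 2 was also the library with the highest sum of choroid plexus markers, 362 CPM. The parts of transcript length and of choroid plexus transcripts in the shared deviations were not tested.

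**Figure D5:**
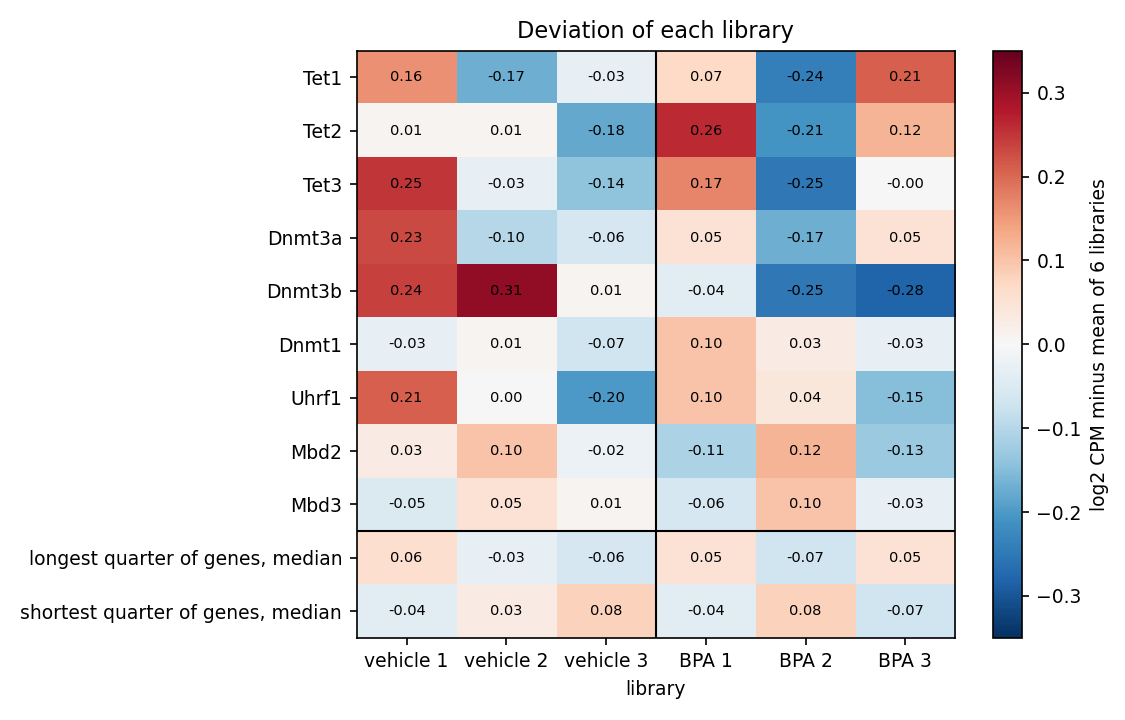
Log2 CPM of each gene minus its mean over the 6 libraries (color, value printed), with the median of the top and the bottom quartile of tested genes by length in the bottom rows. BPA replicate 2 is low for Tet1, Tet2, Tet3 and Dnmt3a and high for Mbd2 and Mbd3, and the medians of long and short genes in that library are -0.07 and 0.08.

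Other genes of the pathway were examined from 5 lists, which held 69 genes, of which 60 could be tested. None passed the adjusted threshold of 0.1 in either direction or had an unadjusted p under 0.05 in edgeR's quasi-likelihood test (0 of 60, against 2.20% of all genes at an unadjusted p under 0.05). Their groups did not overlap for 1 gene, against 6.75% of all genes. That gene was Usp7, a deubiquitinase that binds Dnmt1 and Uhrf1, at 258, 260 and 250 CPM in vehicle and 305, 282 and 279 CPM in BPA, a log2 fold change of 0.17 (SE 0.0894, 95% interval -0.02 to 0.36, unadjusted p = 0.0707, edgeR). DESeq2, limma-voom and edgeR's likelihood ratio test also gave 0 genes of these lists at an adjusted p under 0.1.

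Among other writers and their cofactors 12 of 14 genes were tested, 7 higher and 5 lower in BPA, and their log2 fold changes had a median of 0.005 against 0.0016 over all genes. Zfp57, which keeps imprinted regions methylated, averaged 318 ± 53.0 CPM (SD, n = 3) under vehicle and 353 ± 18.2 CPM under BPA, and Kdm2b, which binds unmethylated CpG islands, 155 CPM ± 9.13 and 163 CPM ± 15.2. Dnmt3l, the germ-line cofactor of Dnmt3a, and Dppa3 had 0 counts in every library. Among 17 other genes of demethylation and base excision 14 were tested, with a median of -0.011. Cxxc4, which binds Tet2, averaged 63.3 ± 11.2 CPM (SD, n = 3) under vehicle and 53.6 ± 2.79 CPM under BPA, a log2 fold change of -0.24 (SE 0.131). Ogt, a glycosyltransferase that binds Tet proteins, averaged 669 CPM ± 30.3 and 738 CPM ± 66.1, a log2 fold change of 0.14 (SE 0.0953). Apex1, the nuclease of base excision repair, averaged 24.8 CPM ± 6.01 and 20.3 CPM ± 5.14. The groups overlapped for all of these but Usp7.

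The 7 other genes listed with the methyl-CpG readers were higher in BPA in 5 cases and lower in 2, with a median of 0.052 on the log2 scale. Those with the smallest p were Zbtb4 (0.15, SE 0.132), Mbd6 (0.12, SE 0.147) and Zbtb38 (0.08, SE 0.109), as log2 fold changes. The 13 partners of Mbd2 and Mbd3 in the NuRD complex had a median of -0.005, and the smallest unadjusted p among them was 0.401 in edgeR, for Mta1, which averaged 270 ± 36.3 CPM (SD, n = 3) under vehicle and 252 ± 24.8 CPM under BPA. Chd5, the neuronal remodeler of the complex, averaged 211 CPM ± 24.0 and 200 CPM ± 20.8, and Cdk2ap1 12.2 CPM ± 1.54 and 13.1 CPM ± 1.10. Of 18 genes of the methyl donor cycle, which supplies S-adenosylmethionine, 14 were tested, 8 higher and 6 lower, with a median of 0.068. Mtrr, which reactivates methionine synthase, averaged 16.3 ± 2.29 CPM (SD, n = 3) under vehicle and 19.2 ± 1.02 CPM under BPA, a log2 fold change of 0.23 (SE 0.157), and its groups overlapped.

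Cell composition was read beside these values from lists of marker genes. Sums of the S phase, mitosis, radial glia, intermediate progenitor and cortical neuron lists overlapped between the groups. Mitosis markers summed to 948 to 1170 CPM in vehicle and 943 to 1228 CPM in BPA, and radial glia markers to 1780 to 1876 CPM and 1722 to 1844 CPM. Intermediate progenitor markers summed to 432 to 608 CPM and 465 to 590 CPM. Of the 18 S phase markers 1 had an unadjusted p under 0.05 in edgeR, against 2.20% of all genes. It was Gins1, which was named after its values were seen. It is a subunit of the replicative helicase and stood at 10.6, 9.01 and 10.6 CPM in vehicle and 8.64, 6.83 and 5.84 CPM in BPA (log2 fold change -0.47, SE 0.211, adjusted p = 1). Of the 12 ventral telencephalon markers 6 had an unadjusted p under 0.05 in edgeR, all lower in BPA, against 1.18% of all genes in that direction. Among them was Nkx2-1, a transcription factor of the ventral telencephalon, which averaged 35.9 ± 8.79 CPM (SD, n = 3) under vehicle and 14.8 ± 5.48 CPM under BPA with no overlap (log2 fold change -1.25, SE 0.220, adjusted p = 0.251, edgeR). Nkx2-1 passed the adjusted threshold of 0.1 with DESeq2 and with edgeR's likelihood ratio test. Of the 6 red blood cell markers tested 1 had an unadjusted p under 0.05, the globin gene Hba-a1, lower in BPA with overlapping groups. Nkx2-1 and Hba-a1 were also named after their values were seen. Sums for red blood cells, vessels, meninges and microglia also overlapped between the groups. Meningeal markers were uneven, at 78.5 CPM in vehicle replicate 3, 67.1 CPM in BPA replicate 2 and 17.2 to 25.1 CPM in the remaining libraries.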

How the data were processed

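Read counts per gene were deposited for 6 libraries of fetal mouse cortex, 3 per group by the labels' treatment, with replicates numbered in accession order. As deposited by the authors, the counts are not normalized. Per the study's methods and processing notes, strand-specific libraries gave 50-base single-end reads that were aligned with TopHat2 2.0.14 to GRCm38 and counted with featureCounts on GENCODE models, and StringTie 1.2.4 is also named. The strand and multi-mapping settings of the counting are not given in the sources used here. A spreadsheet had turned 27 symbols into dates, none of them a gene named here.

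Genes were kept by filterByExpr of edgeR 4.0.16 (R 4.3.3, minimum count 10, minimum total 15), which left 99.7% of counts. The groups were tested with the quasi-likelihood F-test of edgeR after TMM scaling (trimmed mean of M-values), without covariates, using Benjamini-Hochberg adjustment over all genes and a threshold of 0.1, as the study's methods name. CPM used TMM-scaled totals. Standard errors and intervals were derived from the F statistic of each gene, and deviations used log2 CPM with a prior count of 2. Lengths and overlaps came from GENCODE M21. Shares were tested by exact permutation over 20 assignments. Libraries of a group differed by more than sampling noise (chi-square per degree of freedom 3.13 to 8.63). For pairs of libraries across the groups that value was 2.5 to 7.19. Scripts were tested on simulated data.

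The members and gene lists were chosen with earlier results of these data known. All 9 members are named, with the 3 genes of smallest p from each pathway list (some of which are not reported here), and from marker lists the most abundant gene where a result turns on it. Alternatives were DESeq2 1.42.0, limma-voom (limma 3.58.1), the likelihood ratio test, 3 scalings, 2 filters, each library left out, and the longest transcript as length. Leaving out the libraries rich in Ttr, summing Uhrf1 with Gm5648 and the comparison by gene length were chosen after seeing the data.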

Additional observations from a re-analysis of the deposited data

How the results depend on the processing

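No paired analysis was possible because the labels give no replicate numbers that the groups share. Members past the threshold stayed at 0 of the members tested in all 15 alternatives, and at an unadjusted p under 0.05 the count was 1 (Tet2) only without the 2 libraries rich in Ttr, where 6.99% of all genes passed it. With a minimum of 10 CPM Dnmt3b was not tested, so that its value could not be had there. Genes of the 5 pathway lists past the threshold stayed at 0 in those alternatives as well. With 1 library left out, the median log2 fold change ran from 0.032 to 0.085 for the methyl donor cycle. For the genes listed with the readers it ran from -0.009 to 0.074. With no filter the median of the methyl donor cycle was 0.026. The count over all genes was 3 with DESeq2, 4 with the likelihood ratio test, 19 with no filter, 15 without the libraries rich in Ttr and 0 to 1 with 1 library left out, and the cause was not tested. Nkx2-1 was among the genes that passed with DESeq2 and with the likelihood ratio test. It was the only gene that passed without vehicle replicate 3 or without BPA replicate 2.

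With 1 library left out, log2 fold changes ran from 0.03 to 0.09 for Dnmt1, -0.10 to 0.10 for Uhrf1, -0.11 to 0.06 for Dnmt3a, -0.50 to -0.33 for Dnmt3b, -0.07 to 0.15 for Tet1, 0.01 to 0.24 for Tet2, -0.16 to 0.06 for Tet3, -0.16 to -0.03 for Mbd2 and -0.05 to 0.03 for Mbd3. Mbd3 turned to 0.0001 with the likelihood ratio test, 0.01 with library totals alone and 0.0014 with a minimum of 10 CPM, and Tet3 to 0.03 without the libraries rich in Ttr. Dnmt1, Dnmt3b, Tet2 and Mbd2 kept their sign in all alternatives that gave a value.

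With the longest transcript as length, the mean vehicle share was 95.2% for Dnmt3a, 11.8% for Tet1, 20% for Tet2, 68.1% for Tet3 and 14% for Mbd2. The Tet3 share difference was then -2.06 percentage points, against -1.93 with joined exons. Its groups did not overlap under that length, and its exact permutation p, not adjusted, was the smallest that 3 libraries against 3 allow. With 1 library left out, the Dnmt3a share difference ran from 0.864 to 1.79 percentage points. The Tet1 share difference ran from -0.339 to 1.19 percentage points with 1 library left out. The depth limits Dnmt3b most, at 13 to 42 counts per library.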
